A study of Homo sapiens with 45 samples.

Results

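Described here are 35 genes of the ATF4 stress response and of amino acid metabolism, from the 38557 rows of each deposited expression table. They were chosen by symbol from knowledge of the pathway, with earlier results of these data known. They comprise 6 stress transcription factors, 8 enzymes of serine and one-carbon metabolism, 6 enzymes of asparagine, proline, alanine and sulphur amino acid metabolism, 8 amino acid transporters, and 7 feedback, translation and other stress targets. In the Jurkat table and in the table of the other lines, 34 of the 35 reached 1 TPM in at least 3 libraries and were tested. The exception was ALDH1L2, a mitochondrial folate enzyme, which lay between 0.237 and 0.689 TPM in Jurkat and between 0 and 0.133 TPM in the other lines. TPM, transcripts per 1000000, is a level per transcript length, so that genes can be set beside each other.

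ATF4 is a transcription factor made chiefly by regulated translation: when a kinase that senses amino acid shortage, unfolded protein, haem shortage or double-stranded RNA phosphorylates the initiation factor eIF2α, general translation falls and ATF4 translation rises. ATF4 pairs with C/EBP proteins and switches on genes for amino acid synthesis and uptake, and for feedback proteins that restore translation. Leukaemic T cells take up large amounts of amino acids, and T-cell acute lymphoblastic leukaemia is treated with asparaginase, which makes the asparagine synthetase gene ASNS, one of these targets, of interest in these cells. The ATF4 transcript is only part of a measure of ATF4 activity, and no protein was measured here.

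The study asked what depletion or inhibition of the cBAF chromatin remodelling complex does to expression in T-cell acute lymphoblastic leukaemia lines, and poly(A) RNA of 45 libraries was sequenced in 15 groups of 3, labelled as biological replicates. In 9 Jurkat groups, cells received 1 µM BRM014, an inhibitor of the ATPases SMARCA4 and SMARCA2 of cBAF, or the solvent DMSO for 6 h or 8 d, or, as Cas9-expressing cells, lentiviral guides to the AAVS1 site (gAAVS1, the control), to ARID1A (gARID1A), to ARID1A and ARID1B (gARID1A_1B), to SMARCA4 (gSMARCA4) or to SMARCA4 and SMARCA2 (gSMARCA4_A2). All guide groups had 4 days of puromycin, carried Cas9 and were collected on day 10. TALL-1, KOPT-K1 and CCRF-CEM cells were likewise given DMSO or 1 µM BRM014, for 6 h. Each is 1 established cell line, so that replicates measure the spread within a line and not between patients.

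Depth, recovered from the steps between low values, ranged from 29.7 to 47.9 M reads per Jurkat library and from 19.7 to 27.0 M per library of the other lines. The labelled cell type was checked on 10 T cell markers, all of which reached 1 TPM in the 4 lines. Of 5 B cell markers only CD79B reached that level, in 3 of the lines, and of 5 myeloid markers none did. Of 4 erythroid markers HBA1 reached it in Jurkat, where their sum was 1.015 to 4.003 TPM. Of 5 epithelial and fibroblast markers 3 reached it in Jurkat (sum 2.22 to 9.575 TPM) and 2 in CCRF-CEM (sum 6.268 to 9.851 TPM). The part of these transcripts in the results was not tested. Transcript levels of the guides' targets followed the labels in part: SMARCA4 fell by 1.12 on the log2 scale in gSMARCA4 and by 0.95 in gSMARCA4_A2, and ARID1B fell by 0.88 in gARID1A_1B. ARID1A fell by 0.18 in gARID1A, its change was 0.10 and not called in gARID1A_1B, and that of SMARCA2 was 0.04 and not called in gSMARCA4_A2. An edit need not lower a transcript, so the groups are named as labelled.

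ATF4 and its partners bind a composite C/EBP-ATF site whose core, TGATGNAA, was searched on both strands of the 250 bases upstream of the gene start in RefSeq (GRCh38.p14). Of the 35 genes, 28 had an entry, with 44 promoters between them, and 6 of the 44, from 6 genes, held the core (13.6%), against 1104 of 35116 promoters in the whole table (3.14%). The 3 shown belong to members whose values by library are given below, ASNS, the stress factor gene ATF3 and the glutathione-degrading enzyme gene CHAC1. Capitals mark the core, which stands on the opposite strand in CHAC1. The stretches are chr7:97872409-97872658 (minus strand), chr1:212565157-212565406 (plus strand) and chr15:40953221-40953470 (plus strand), each ending at the base before a gene start.
ASNS: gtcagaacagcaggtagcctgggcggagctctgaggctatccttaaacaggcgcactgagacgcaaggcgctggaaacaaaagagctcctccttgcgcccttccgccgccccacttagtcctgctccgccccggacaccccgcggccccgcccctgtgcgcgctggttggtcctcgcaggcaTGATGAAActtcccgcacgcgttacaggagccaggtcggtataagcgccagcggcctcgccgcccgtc
ATF3: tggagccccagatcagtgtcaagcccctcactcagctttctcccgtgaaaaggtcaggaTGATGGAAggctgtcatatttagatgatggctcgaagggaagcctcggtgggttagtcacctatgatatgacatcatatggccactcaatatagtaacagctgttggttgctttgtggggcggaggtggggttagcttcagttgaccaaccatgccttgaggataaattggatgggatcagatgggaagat
CHAC1: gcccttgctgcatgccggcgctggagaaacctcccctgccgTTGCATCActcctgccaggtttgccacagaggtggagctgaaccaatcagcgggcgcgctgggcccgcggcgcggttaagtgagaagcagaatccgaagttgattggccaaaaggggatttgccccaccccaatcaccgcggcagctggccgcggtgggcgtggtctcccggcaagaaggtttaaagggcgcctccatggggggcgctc
The core begins 68 bases before the start in ASNS, 191 before it in ATF3 and 209 before it in CHAC1. CEBPG, HERPUD1 and the third listed start of SLC1A5 also held it. The longer element of CCAAT, 9 bases of any kind and CCACG, searched on both strands and bound by ATF6 on genes of the unfolded protein response, was in none of the 44 promoters and in 26 of 35116 overall (0.074%). A match describes these letters only and shows no binding.

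In Jurkat cells after 8 d of BRM014, most of these genes were lower than in the DMSO control. Of the 34 tested, 26 fell and 4 rose (limma, Benjamini-Hochberg adjusted p under 0.05), while 23% of all 17936 genes tested fell and 36.9% rose, so that the share of lower members (76.5%) was above that of all genes. Their median log2 change, a difference of log2(TPM + 1), was −0.50, beside 0.08 over all genes. Of all calls 61.6% were higher, and 49.1% after median-ratio rescaling of the libraries. After 6 h, by contrast, 7 fell and 5 rose, against 20.7% lower and 26.8% higher among all genes, which for the lower genes is close to the background, and the median was −0.02. The effect at 8 d was more negative than that at 6 h for 19 members and more positive for 2, where 18.5% and 25.7% of all genes differed in these directions. The 5 higher members at 6 h were 3 without DMSO replicate 2, and the 2 more positive differences were 4 without 8 d DMSO replicate 1. The 6 h and 8 d comparisons have separate DMSO controls. A lack of overlap between the 3 libraries of each group, given below for single genes, was common. It held for 58.8% of all genes at 8 d and 53.2% at 6 h. Against gAAVS1 it held for 39.3% in gARID1A, 53.7% in gARID1A_1B, 53.2% in gSMARCA4 and 69.2% in gSMARCA4_A2. With BRM014 in the other lines it held for 50.6 to 56.1%.

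**Figure D1:**
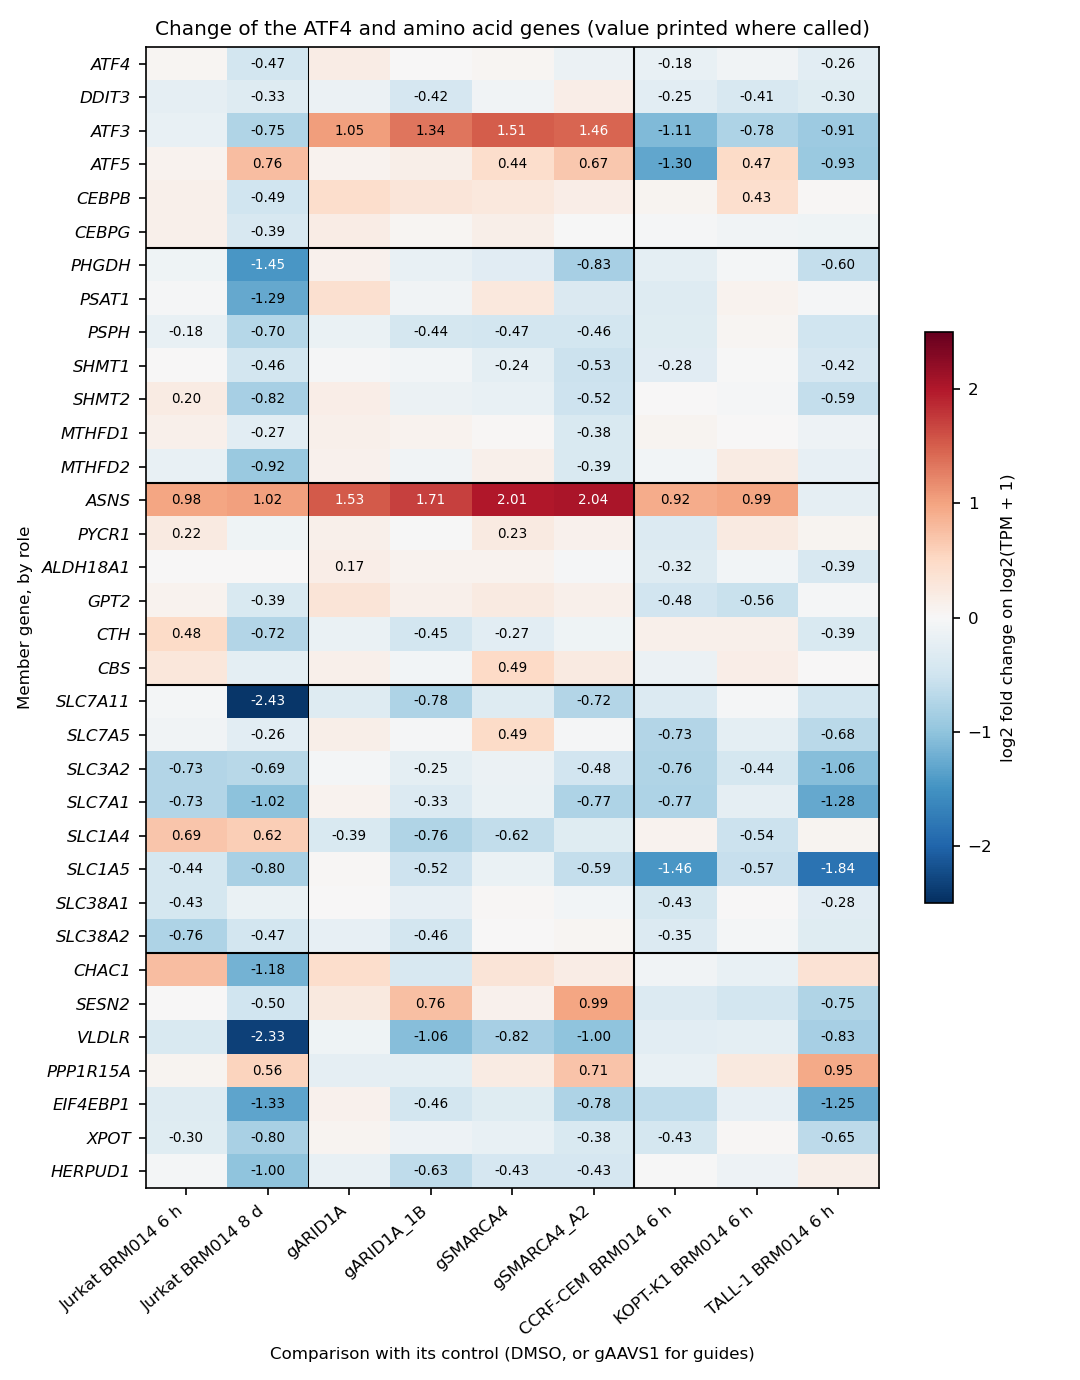
Log2 changes of the 34 tested genes (rows, by role) in the 9 comparisons with a control (columns). Colour gives the difference of log2(TPM + 1) from the control and a number is printed where the adjusted p is under 0.05. The column of 8 d BRM014 in Jurkat has 26 lower and 4 higher genes, and ASNS is higher in every column except TALL-1.

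One feature of the 8 d control bears on these values. Within the 8 d DMSO group, replicate 1 was the highest library for 31 of the 34 genes, where it was the highest for 53.7% of all genes. The same held for replicate 1 of gAAVS1 (28 members, 43.6% of all genes) and of gARID1A (31 members, 37.9%). In the other lines, CCRF-CEM replicate 3 was the highest for 27 members with BRM014 (47.5%) and 22 in DMSO (41.4%), and TALL-1 DMSO replicate 2 for 24 (32.0%). Without the 8 d DMSO replicate 1, 21 members were lower and 4 higher after 8 d of BRM014, and ATF3, SESN2, DDIT3, GPT2 and CEBPB were no longer called. The larger changes stayed called without it, among them those of SLC7A11 (−2.16), VLDLR (−1.97), PHGDH (−1.23) and PSAT1 (−1.05).

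The 8 d DMSO cells themselves had more of these transcripts than the 6 h DMSO cells. Here 24 members were higher and 2 lower, against 16.6% and 18.7% of all genes, with a median of 0.47 beside 0.00 over all genes. The largest differences were those of CHAC1 (1.85), VLDLR (1.76), SLC7A11 (1.49), ATF3 (1.30), SESN2 (1.25) and PSAT1 (1.11). ATF5 (−0.46) and SHMT1 (−0.13) were the 2 lower ones, and neither was called with only these 2 groups in the fit. Without 6 h DMSO replicate 1 or 3 or 8 d DMSO replicate 1 there was 1 lower. Of all calls 47.1% were higher, and 60.1% with mitochondrial genes left out. The 8 d DMSO libraries are also the control of the 8 d inhibitor comparison, so that these comparisons are not independent. The 2 times also differ in the days of culture, which cannot be told apart from the time of exposure to DMSO. The sample numbers of the 8 d libraries stand apart from those of all other libraries. Whether the 8 d and 6 h libraries were prepared or sequenced together is not stated here, and a batch could not be told apart from the time either. When only these 2 groups entered the fit, 12 members were called higher. Over all 17936 genes the higher calls went from 2985 to 859 in that fit.

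Among the stress transcription factors, the ATF4 transcript itself had small changes. It stood at 291, 258 and 229 TPM in the 8 d DMSO libraries and at 191, 186 and 183 TPM after 8 d of BRM014, with no overlap, a log2 change of −0.47 ± 0.08 (adjusted p = 2.93e-05), where the error here and below is the standard error of the limma fit. At 6 h the DMSO libraries had 187, 164 and 193 TPM and the BRM014 libraries 198, 172 and 197 TPM, and the groups overlapped. The BRM014 values at 8 d therefore lay within the range of both 6 h groups, and the 8 d DMSO libraries were the high ones. In none of the guide groups was ATF4 called against gAAVS1.

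ATF3, which encodes a bZIP factor that is itself induced through ATF4, went one way after 8 d of the inhibitor and the other under the guides. After 6 h of BRM014 its change in Jurkat was −0.18 and not called. Its level in DMSO was higher by 1.30 at 8 d than at 6 h. It stood at 22.0, 12.5 and 9.28 TPM in 8 d DMSO and 8.21, 7.21 and 7.93 TPM in 8 d BRM014, so that every treated library was below every control library, by −0.75 ± 0.23 (adjusted p = 0.0091). Without DMSO replicate 1 this change was −0.42 and was not called, nor was it with only the 2 groups in the fit (adjusted p = 0.0671). In gAAVS1 it was 10.4, 5.97 and 6.23 TPM.

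Each guide group lay above all 3 of these control libraries. The values were 23.8, 13.1 and 13.7 TPM in gARID1A, 20.8, 20.3 and 19.0 in gARID1A_1B, 26.6, 21.1 and 20.9 in gSMARCA4 and 20.7, 22.2 and 22.8 in gSMARCA4_A2. The log2 changes were 1.05 ± 0.23 (adjusted p = 0.00257), 1.34 ± 0.23 (adjusted p = 1.11e-04), 1.51 ± 0.23 (adjusted p = 2.74e-05) and 1.46 ± 0.23 (adjusted p = 1.79e-05) in that order. With only the 2 groups in the fit, the rise in gARID1A was not called (adjusted p = 0.0586). The 4 guide comparisons share the gAAVS1 libraries and are not independent of each other.

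ATF5, a relative of ATF4 that is under similar translational control, rose after 8 d of BRM014, from 57.2, 42.9 and 42.0 to 83.6, 78.4 and 78.9 TPM, by 0.76 ± 0.09 (adjusted p = 1.03e-07). It also rose in gSMARCA4, by 0.44 ± 0.09 (adjusted p = 2.86e-04), and in gSMARCA4_A2, by 0.67 ± 0.09 (adjusted p = 6.61e-07). The gAAVS1 libraries had 49.3, 47.2 and 49.9 TPM, and the libraries of gSMARCA4 (68.6, 64.5 and 66.2) and gSMARCA4_A2 (79.5, 79.0 and 76.4) were all above them. In gARID1A and gARID1A_1B the changes were 0.09 and 0.14, not called. DDIT3, which encodes the pro-apoptotic factor CHOP, fell by 0.42 in gARID1A_1B and was not called in the other guide groups. ATF5 shares 21.2% of its exon bases with NUP62 and DDIT3 shares 27.2% with MARS on the opposite strand, and the Jurkat libraries were made without strand information. The same limit holds for MTHFD2, which shares 27.2% with SLC4A5, and for SLC1A5, which shares 23.4% with AC008622.2.

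The enzymes that make serine from glucose and pass its carbon to folate fell together at 8 d. All 7 tested were lower after 8 d of BRM014, with a median of −0.82, against 23% of all genes. At 6 h 1 rose and 1 fell, below the shares of all genes (26.8% and 20.7%). The same 7 were all lower in the difference between the 8 d and the 6 h effect. In gSMARCA4_A2, 6 of the 7 fell, with a median of −0.46, against 21.1% of all genes. Among them MTHFD2 was not called without gAAVS1 replicate 1 (−0.29) or without gSMARCA4_A2 replicate 1 (−0.36) or 3 (−0.39). In gSMARCA4 2 and in gARID1A_1B 1 fell (all genes 15.8% and 23.1%), the latter below the background.

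PHGDH catalyses the entry step of serine synthesis. It stood at 138, 99.2 and 76.8 TPM in 8 d DMSO and 38.1, 35.6 and 36.4 TPM in 8 d BRM014, every treated library below every control, a change of −1.45 ± 0.15 (adjusted p = 5.45e-08). At 6 h the DMSO and BRM014 libraries, at 64.9, 74.7 and 68.1 and 58.9, 77.2 and 58.0 TPM, overlapped. In gSMARCA4_A2 it had 34.1, 40.0 and 40.8 TPM against 77.3, 61.6 and 67.9 TPM in gAAVS1, again with no overlap, a change of −0.83 ± 0.15 (adjusted p = 6.97e-05).

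PSAT1, the aminotransferase of the next step, was among the most abundant of these transcripts. It stood at 586, 410.0 and 317 TPM in 8 d DMSO and 168, 182 and 170.3 TPM in 8 d BRM014, a change of −1.29 ± 0.18 (adjusted p = 3.06e-06), and the control libraries were spread more widely than the treated ones. At 6 h both groups lay between 187 and 202 TPM. In the guide libraries it reached 401, 249 and 229.8 TPM in gARID1A and 161, 175 and 170.2 TPM in gSMARCA4_A2, against 262, 194 and 200.1 TPM in gAAVS1, and was called in neither.

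SHMT2, the mitochondrial enzyme that splits serine into glycine and a one-carbon unit, moved in opposite directions at the 2 times. It went from 101, 88.4 and 99.8 TPM in DMSO to 118, 105 and 109 TPM in BRM014 at 6 h, a rise of 0.20 ± 0.08 (adjusted p = 0.0362), and from 141, 121 and 106 to 70.9, 68.2 and 66.4 TPM at 8 d, a change of −0.82 ± 0.08 (adjusted p = 5.91e-09). All treated libraries were above all controls at 6 h and below them at 8 d. The rise at 6 h was not called with median-ratio rescaling or limma-voom (both 0.16), nor with no filter or only the compared groups (both 0.20), or without DMSO replicate 2 (0.14) or BRM014 replicate 1 (0.15) or 3 (0.21). The difference between the effects was −1.02 ± 0.11 (adjusted p = 1.24e-07). MTHFD2, its downstream partner in mitochondria, fell by 0.92 at 8 d, and its change at 6 h was −0.18 and not called.

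**Figure D2:**
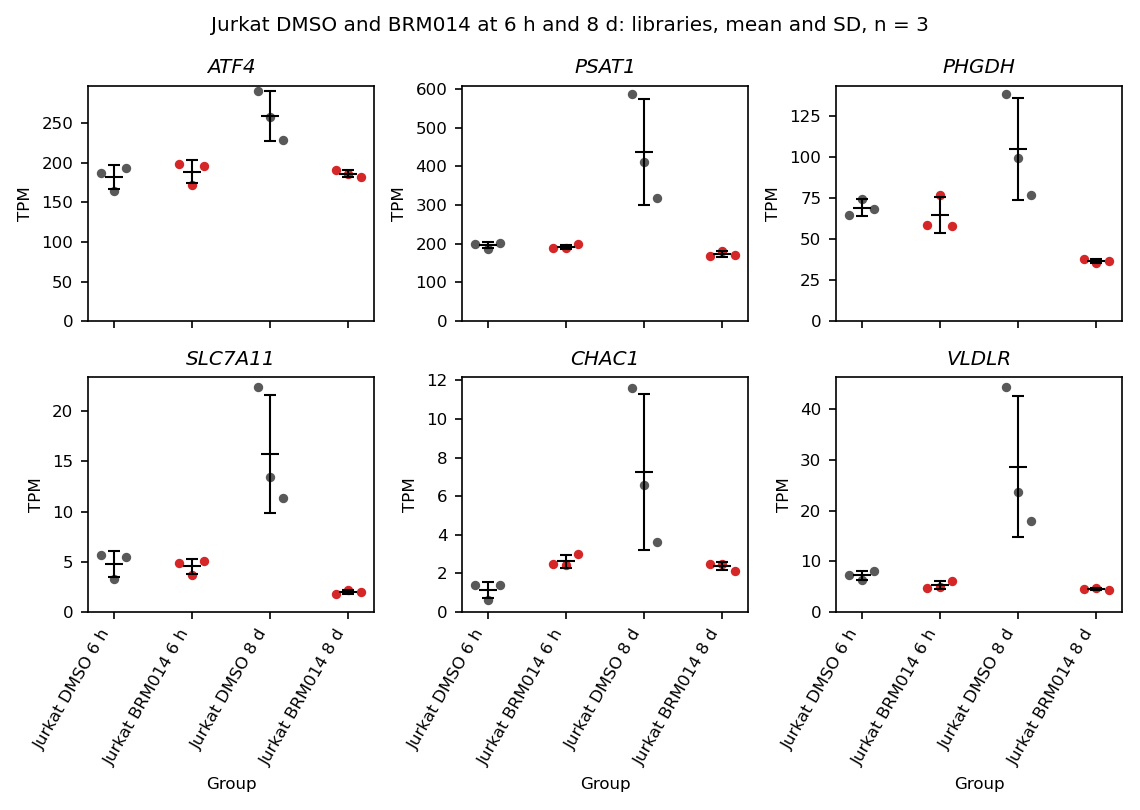
TPM (linear axes) of ATF4, PSAT1, PHGDH, SLC7A11, CHAC1 and VLDLR in the Jurkat DMSO and BRM014 libraries at 6 h and 8 d. Points are libraries and bars give the mean and SD of 3. In each panel the 3 libraries of 8 d DMSO lie above those of 8 d BRM014 and are the most spread of the 4 groups.

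The wider folate, glycine and methionine cycle list of 16 genes also had more lower than higher members. After 8 d of BRM014 8 fell and 1 rose (all genes 23% and 36.9%), the lower ones including MTHFD1L (−1.14) and GCSH (−0.75). At 6 h 10 fell and 1 rose (all genes 20.7% and 26.8%). MTHFD1L, the mitochondrial formate-producing enzyme, had −0.68 at 6 h. In gSMARCA4_A2 9 fell and 2 rose (all genes 21.1% and 40.9%), with MTHFD1L at −0.84.

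ASNS makes asparagine from aspartate and glutamine, lies at chr7:97851677-97928441 (hg38) and was called higher in all 6 Jurkat comparisons. In gAAVS1 it stood at 21.7, 15.2 and 13.9 TPM, with a mean of 16.9 ± 4.21 (SD, n = 3). The 4 other guide groups had 70.0, 43.0 and 41.2 TPM in gARID1A, 53.0, 59.6 and 57.1 in gARID1A_1B, 68.9, 71.5 and 69.6 in gSMARCA4 and 67.4, 75.8 and 71.7 in gSMARCA4_A2. Every one of these 12 libraries was above all 3 control libraries.

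The log2 changes of ASNS were 1.53 ± 0.32 (adjusted p = 0.00187) in gARID1A, 1.71 ± 0.32 (adjusted p = 2.85e-04) in gARID1A_1B, 2.01 ± 0.32 (adjusted p = 4.78e-05) in gSMARCA4 and 2.04 ± 0.32 (adjusted p = 1.75e-05) in gSMARCA4_A2. Groups with 2 targets were not called against those with 1: gARID1A_1B against gARID1A gave 0.18 ± 0.32 and gSMARCA4_A2 against gSMARCA4 gave 0.03 ± 0.32. By hg38 annotation 44.6% of the exon bases of ASNS are shared with AC079781.5 on the same strand, a gene with no row used here.

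Under the inhibitor the libraries were more variable. At 6 h ASNS stood at 14.59, 33.3 and 16.9 TPM in DMSO and 30.8, 61.0 and 36.6 TPM in BRM014, groups that overlapped, for 0.98 ± 0.32 (adjusted p = 0.0169). At 8 d it stood at 77.2, 36.2 and 25.8 and 81.5, 89.3 and 86.6 TPM, with all treated libraries above all controls, for 1.02 ± 0.32 (adjusted p = 0.0103). The call at 6 h was lost without DMSO replicate 1 (0.76) or 3 (0.86) or BRM014 replicate 2 (0.70), and that at 8 d without DMSO replicate 3 (0.69). With only the 2 compared groups in the fit, neither was called (adjusted p = 0.0734 at 6 h and 0.0596 at 8 d, limma with Benjamini-Hochberg adjustment).

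**Figure D3:**
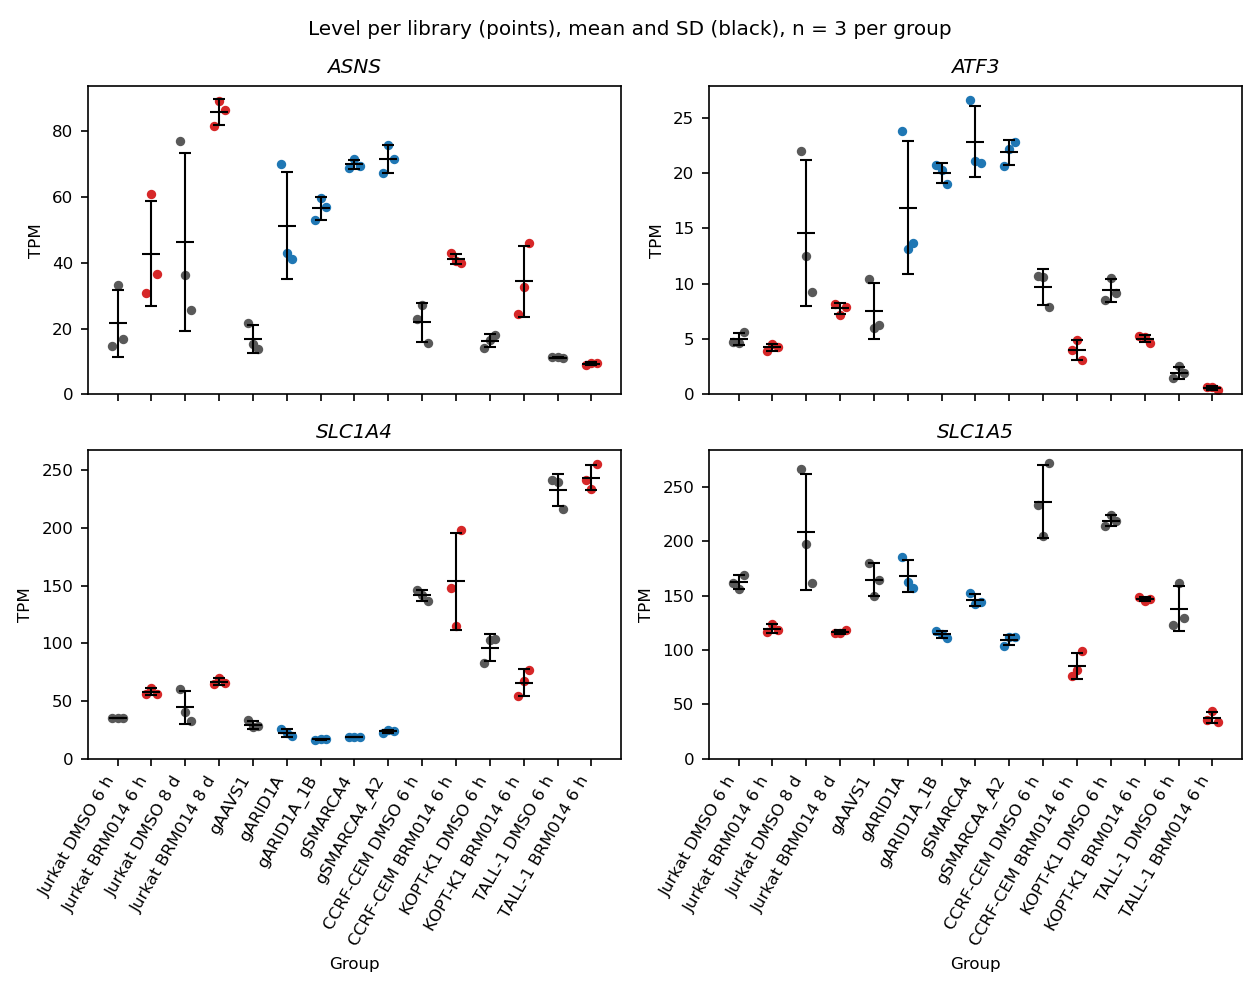
TPM (linear axes) of ASNS, ATF3, SLC1A4 and SLC1A5 in each of the 45 libraries by group. Grey points are controls, red BRM014 and blue guide libraries, with the mean and SD of 3 in black. ASNS is above gAAVS1 in all 12 other guide libraries, and SLC1A5 is below DMSO in every BRM014 group.

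The other enzymes of this role had no common direction. CTH, which cleaves cystathionine to cysteine, went from 4.12, 2.74 and 3.38 to 5.18, 4.88 and 5.32 TPM at 6 h, with no overlap, a rise of 0.48 ± 0.10 (adjusted p = 5.55e-04). At 8 d it went from 8.43, 7.55 and 7.21 to 4.33, 4.07 and 4.43 TPM, again with no overlap, a change of −0.72 ± 0.10 (adjusted p = 3.22e-06). The difference between these effects was −1.21 ± 0.15 (adjusted p = 7.95e-07). PYCR1, the last enzyme of proline synthesis, rose by 0.22 ± 0.07 at 6 h and by 0.23 ± 0.07 in gSMARCA4, and ALDH18A1, the first of that pathway, rose in gARID1A by 0.17 ± 0.05. The calls of PYCR1 were lost with median-ratio rescaling (0.18 in both), and that of ALDH18A1 on leaving out any 1 library. CBS has a near-identical copy, CBSL, at 7.59 to 23.9 TPM in Jurkat, so its value is uncertain.

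Amino acid transporters fell already at 6 h. After 6 h of BRM014 in Jurkat 5 of 8 fell and 1 rose, with a median of −0.43, against 20.7% and 26.8% of all genes. After 8 d 6 fell and 1 rose, with a median of −0.58, against 23% and 36.9%. SLC3A2, the heavy chain shared by SLC7A5 and SLC7A11, stood at 222, 217 and 230.1 TPM in DMSO and 134, 135 and 134 TPM after 6 h, with no overlap (−0.73 ± 0.08, adjusted p = 2.25e-07). The cationic amino acid carrier SLC7A1 went from 101, 95.5 and 107 to 61.6, 59.7 and 60.3 TPM (−0.73 ± 0.09, adjusted p = 1.31e-06). SLC38A2, a sodium-coupled neutral amino acid carrier, had −0.76. The glutamine carrier SLC1A5 went from 161, 156 and 169 to 116, 124 and 119 TPM at 6 h (−0.44 ± 0.11, adjusted p = 0.00207) and from 267, 198 and 162 to 116, 116 and 119 TPM at 8 d (−0.80 ± 0.11, adjusted p = 1.60e-06). The treated libraries were all below the controls at both times.

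SLC7A11, the cystine carrier that feeds glutathione synthesis, had the largest fall of any member at 8 d. It stood at 22.4, 13.5 and 11.4 TPM in DMSO and 1.78, 2.21 and 2.01 TPM in BRM014, a change of −2.43 ± 0.26 (adjusted p = 1.03e-07). At 6 h the groups overlapped, at 5.67, 3.35 and 5.46 and 4.84, 3.73 and 5.11 TPM. The effects at the 2 times differed by −2.38 ± 0.37 (adjusted p = 2.60e-05). In the guide groups it was 4.69, 5.14 and 4.47 TPM in gARID1A_1B and 4.84, 5.05 and 5.03 TPM in gSMARCA4_A2 against 12.4, 7.39 and 7.51 TPM in gAAVS1, called lower in both, at −0.78 and −0.72. Without gAAVS1 replicate 1 these were −0.55 and −0.50 and were not called. Without gARID1A_1B replicate 1 (−0.77) or 3 (−0.74), or gSMARCA4_A2 replicate 1 (−0.71), the call of that group was also lost.

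SLC1A4, a neutral amino acid carrier, was the 1 of the 8 member transporters that rose under BRM014 in Jurkat. It stood at 35.1, 35.6 and 35.7 TPM in DMSO and 56.5, 61.6 and 56.0 TPM in BRM014 at 6 h (0.69 ± 0.13, adjusted p = 2.15e-04), and at 60.3, 40.8 and 32.8 and 65.2, 70.4 and 65.3 TPM at 8 d (0.62 ± 0.13, adjusted p = 4.50e-04). In the guide groups the order was the reverse. Against 33.5, 27.2 and 28.2 TPM in gAAVS1, gARID1A_1B had 16.7, 17.4 and 17.1 TPM (−0.76 ± 0.13, adjusted p = 1.17e-04) and gSMARCA4 18.7, 19.3 and 18.7 TPM (−0.62 ± 0.13, adjusted p = 8.65e-04). All of these guide libraries were below all gAAVS1 libraries. SLC1A4 was also lower in gARID1A (−0.39 ± 0.13, adjusted p = 0.044), a call lost on leaving out most single libraries, and in gSMARCA4_A2 its change was −0.31 ± 0.13, not called.

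The feedback and other targets had the largest median change of the 5 roles at 8 d, −0.998, with 6 of 7 lower and 1 higher (all genes 23% and 36.9%). VLDLR, a lipoprotein receptor gene and known ATF4 target, stood at 44.3, 23.7 and 18.0 TPM in DMSO and 4.47, 4.74 and 4.36 TPM in BRM014, a change of −2.33 ± 0.26 (adjusted p = 1.90e-07). It fell by 1.06 in gARID1A_1B, 0.82 in gSMARCA4 and 1.00 in gSMARCA4_A2, where it had 5.7, 5.51 and 5.56, 7.21, 6.57 and 6.56 and 6.00, 6.1 and 5.49 TPM against 17.4, 11.0 and 10.8 TPM in gAAVS1. None of those libraries reached the gAAVS1 range, but the call in gSMARCA4 was lost without gAAVS1 replicate 1 (−0.61). CHAC1 stood at 11.6, 6.57 and 3.63 TPM in 8 d DMSO and 2.51, 2.48 and 2.14 TPM in BRM014 (−1.18 ± 0.34, adjusted p = 0.00506). At 6 h it stood at 1.41, 0.649 and 1.38 and 2.47, 2.42 and 2.99 TPM, all treated libraries above all controls, at 0.77 and not called.

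EIF4EBP1, which encodes a repressor of cap-dependent translation, fell by 1.33 at 8 d and by 0.78 in gSMARCA4_A2. PPP1R15A encodes GADD34, which directs removal of phosphate from eIF2α, and it rose where most others fell. It went from 24.8, 19.7 and 18.6 to 30.6, 30.2 and 33.1 TPM at 8 d (0.56 ± 0.10, adjusted p = 2.82e-05) and was at 34.1, 35.0 and 34.8 TPM in gSMARCA4_A2 against 20.8, 20.7 and 21.0 TPM in gAAVS1 (0.71 ± 0.10, adjusted p = 1.47e-06), with no overlap in either. SESN2, an inhibitor of the growth kinase complex mTORC1 that senses leucine, stood at 14.3, 12.6 and 12.5 TPM in gSMARCA4_A2 and 11.4, 10.8 and 10.7 TPM in gARID1A_1B against 8.07, 5.3 and 5.22 TPM in gAAVS1. The changes were 0.99 ± 0.21 (adjusted p = 4.25e-04) and 0.76 ± 0.21 (adjusted p = 0.00753). All libraries of both groups were above all gAAVS1 libraries.

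More members were lower in the groups with 2 targets than in those with 1. gARID1A had 3 members higher and 1 lower, against 7.72% and 13.2% of all genes. gARID1A_1B had 3 higher and 12 lower, against 17% and 23.1%, and 7 lower without gAAVS1 replicate 1. gSMARCA4 had 6 higher and 6 lower, against 25.1% and 15.8%, so that its share of lower members (17.6%) was close to the background. gSMARCA4_A2 had 5 higher and 14 lower, against 40.9% and 21.1%. Without gARID1A replicate 1 the lower members of gARID1A numbered 4, and without any 1 of the other 5 libraries there were 0. Median-ratio rescaling moved the higher share of all calls from 37.0 to 50.5% in gARID1A, from 61.4 to 51.0% in gSMARCA4 and from 65.9 to 45.5% in gSMARCA4_A2. In gSMARCA4_A2 it moved the median of all genes by −0.14, and 22 members were then lower. The lower calls among all 17936 genes rose as well, from 3793 to 6065.

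The groups with 1 and 2 targets were compared directly. gARID1A_1B was lower than gARID1A for 8 members and higher for 0 (1 at an unadjusted limma p under 0.05, 0 by limma-voom), where 10.6% of all genes were lower and 10.3% higher. Of all calls 49.5% were higher, and 66.3% with mitochondrial genes left out. The largest differences were those of VLDLR (−0.95), EIF4EBP1 (−0.57) and SLC1A5 (−0.55). Without gARID1A replicate 1 the lower members numbered 4, 1 was higher, and VLDLR (−0.60) was not called. gSMARCA4_A2 was lower than gSMARCA4 for 12 members and higher for 3, against 12.3% and 26.5% of all genes. Of all calls 68.3% were higher, and 38.9% after median-ratio rescaling. PSAT1 (−0.62), SLC7A1 (−0.60) and PHGDH (−0.54) led the lower ones, and SESN2 (0.90 ± 0.21, adjusted p = 0.00256), PPP1R15A (0.49 ± 0.10, adjusted p = 3.88e-04) and ATF5 (0.23 ± 0.09, adjusted p = 0.0352) were the 3 higher ones. ATF4 was lower, at −0.21 ± 0.08. The calls of ATF5 and ATF4 were lost with no filter on low values and on leaving out most single libraries, and that of ATF5 with median-ratio rescaling (0.12).

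The effect of guides to both ATPases was also set against that of 8 d of the inhibitor of both, a comparison added after the data had been seen. The guide effect was more positive for 10 members and more negative for 1, where 9.7% and 7% of all genes differed. Of all calls 58.1% were positive, and 39.5% after median-ratio rescaling. ATF3 had the largest difference, 2.20 ± 0.33 (adjusted p = 1.19e-04), followed by SLC7A11 (1.70 ± 0.37, adjusted p = 0.00375), SESN2 (1.50 ± 0.30, adjusted p = 0.00208) and VLDLR (1.32 ± 0.37, adjusted p = 0.0183). The 1 in the other direction was SLC1A4 (−0.93 ± 0.19, adjusted p = 0.00226). For PHGDH the difference was 0.62 ± 0.21 and not called. Each effect has its own control group, and both control groups had a replicate 1 that was high for most members. VLDLR was not called without gAAVS1 replicate 3 (1.21). The count of 10 became 25 without 8 d DMSO replicate 3 and 6 without gAAVS1 replicate 3.

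In the 3 other lines, all treated for 6 h, lower calls also outnumbered higher ones. CCRF-CEM had 1 higher and 14 lower, against 28.9% and 20.9% of the 16241 genes tested. KOPT-K1 had 3 higher and 6 lower, against 22.9% and 15.2%, so that the lower share was near the background. TALL-1 had 1 higher and 18 lower, against 26.6% and 19.3%. Median-ratio rescaling moved the higher share of all calls from 58.0 to 45.8% in CCRF-CEM and from 60.1 to 45.4% in KOPT-K1. The medians of the members were −0.30, −0.05 and −0.34 in that order, beside 0.05, 0.04 and 0.03 over all genes. In CCRF-CEM, whose replicate numbers were taken to pair the libraries, a fit with the replicate number as a block called 21 lower. Over all genes it called 4040 lower, beside 3398 without the block. The members added were SESN2, PHGDH, PYCR1, SLC7A11, PSPH, EIF4EBP1 and PSAT1. The lower count of 14 in CCRF-CEM was 20 without BRM014 replicate 3, 11 without DMSO replicate 3 and 15 without both, and the 18 in TALL-1 were 15 without DMSO replicate 2. In bulk RNA, fewer cells with a transcript and less of it per cell cannot be told apart.

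Transporters were among the members that fell in these lines, with 6 of 8 lower in CCRF-CEM, 3 in KOPT-K1 and 5 in TALL-1 (all-gene shares of 20.9%, 15.2% and 19.3%). SLC1A5 went from 233, 205 and 272 to 75.8, 81.3 and 99.3 TPM in CCRF-CEM, from 214, 224 and 219 to 149, 145 and 147 TPM in KOPT-K1 and from 123, 162 and 129 to 35.6, 43.6 and 33.9 TPM in TALL-1. No treated library of any line reached its control range. The changes were −1.46 ± 0.12 (adjusted p = 1.88e-07), −0.57 ± 0.12 (adjusted p = 0.00174) and −1.84 ± 0.12 (adjusted p = 1.31e-08), and the effect in KOPT-K1 differed from that in CCRF-CEM (−0.88 ± 0.17, adjusted p = 0.00249) and in TALL-1 (−1.27 ± 0.17, adjusted p = 1.04e-04). SLC3A2 was called lower in all 3, at −0.76, −0.44 and −1.06, the call in KOPT-K1 being lost without DMSO replicate 2 (−0.38) or BRM014 replicate 1 (−0.37). SLC7A1 was called in CCRF-CEM (−0.77) and TALL-1 (−1.28), and SLC7A5, which carries leucine, in the same 2 lines (−0.73 and −0.68). SLC1A4, higher in Jurkat at 6 h, fell in KOPT-K1 by 0.54 and had 0.08 and 0.07, not called, in the other 2. Without KOPT-K1 BRM014 replicate 1 the fall was −0.41 and not called.

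ASNS was called higher in CCRF-CEM and KOPT-K1. It went from 22.9, 27.3 and 15.5 to 42.9, 40.7 and 40.1 TPM in CCRF-CEM (0.92 ± 0.19, adjusted p = 0.00102) and from 14.3, 16.7 and 18.2 to 24.5, 32.6 and 46.1 TPM in KOPT-K1 (0.99 ± 0.19, adjusted p = 8.09e-04), all treated libraries above all controls. In TALL-1 it went from 11.3, 11.4 and 11.0 to 8.84, 9.69 and 9.66 TPM, all below the controls, but the change of −0.23 ± 0.19 (adjusted p = 0.358) was not called. The effect in TALL-1 differed from that in CCRF-CEM by −1.15 ± 0.27 (adjusted p = 0.00695) and from that in KOPT-K1 by −1.22 ± 0.27 (adjusted p = 0.00464).

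ATF5 and ATF3 fell in some or all of the lines. ATF5 went from 338, 342 and 354 to 136, 145 and 137 TPM in CCRF-CEM (−1.30 ± 0.07, adjusted p = 3.37e-09) and from 984, 1119 and 963 to 507, 610.4 and 491 TPM in TALL-1 (−0.93 ± 0.07, adjusted p = 8.65e-08). In KOPT-K1, where its level was lowest, it rose from 32.9, 32.8 and 30.3 to 44.4, 43.4 and 46.2 TPM (0.47 ± 0.07, adjusted p = 1.33e-04). ATF3 was called lower in all 3, at −1.11, −0.78 and −0.91, and its highest treated library was below its lowest control in each. ATF4 fell by 0.18 in CCRF-CEM (not called without DMSO replicate 3, −0.16, or BRM014 replicate 2, −0.14) and by 0.26 in TALL-1, and its change in KOPT-K1 was −0.10 and not called. Jurkat at 6 h, in the other table, had −0.18 for ATF3 and 0.08 for ATF5, neither called, and was not compared with these lines by a test because table, extraction and kit differ along with the line.

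TALL-1 had the most lower members of the 3 lines, and PPP1R15A was its 1 higher member. It rose from 19.4, 19.6 and 15.5 to 35.9, 34.5 and 37.2 TPM (0.95 ± 0.11, adjusted p = 3.16e-06), with no overlap, and this effect was above that in CCRF-CEM by 1.13 ± 0.15 (adjusted p = 7.25e-05) and above that in KOPT-K1 by 0.70 ± 0.15 (adjusted p = 0.00358). EIF4EBP1 fell by 1.25, VLDLR by 0.83 and SESN2 by 0.75, the last not called without DMSO replicate 2 (−0.58) or BRM014 replicate 1 (−0.61). PHGDH went from 142, 168 and 191 to 97.5, 111 and 119.6 TPM (−0.60 ± 0.15, adjusted p = 0.00393), and SHMT2 (−0.59) and SHMT1 (−0.42) fell too. Of all members, the effect in TALL-1 was below that in KOPT-K1 for 9 and above it for 2, against 11.2% and 10.1% of all genes. Between TALL-1 and CCRF-CEM 2 were below and 2 above (10.5% and 9.85% of all genes), and between CCRF-CEM and KOPT-K1 3 were below and 0 above (9.72% and 8.62%, with 1 above at an unadjusted limma p under 0.05 and 0 by limma-voom). With the replicate number as a block within each line, 16 were lower and 1 higher between CCRF-CEM and KOPT-K1. Between TALL-1 and CCRF-CEM 11 were lower and 5 higher. Over all 16241 genes this fit called 2522 lower and 2517 higher in the former (1578 and 1400 without the block). In the latter it called 2879 lower and 2458 higher (1711 and 1600 without the block). The numbers were taken to pair the libraries in CCRF-CEM only, and those of KOPT-K1 and TALL-1 did not all exceed 0.1. The 3 between CCRF-CEM and KOPT-K1 became 10 without CCRF-CEM BRM014 replicate 3. The 2 above between TALL-1 and CCRF-CEM became 4 without that library and 1 without CCRF-CEM BRM014 replicate 1 or TALL-1 DMSO replicate 1 or 3. Those between TALL-1 and KOPT-K1 became 4 without KOPT-K1 DMSO replicate 1 and 1 without most other single libraries. The differences between lines share the effect of each line with the next.

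The lines differed in these genes before any inhibitor. In DMSO, 16 members were higher and 15 lower in TALL-1 than in KOPT-K1, 12 and 12 in TALL-1 against CCRF-CEM, and 9 and 7 in CCRF-CEM against KOPT-K1. Among all genes the shares were 35.4% and 35.1%, 32.6% and 35%, and 32.9% and 29.6%, so that these counts are near the background, apart from TALL-1 against KOPT-K1 (47.1% and 44.1% of the members). PSAT1 had the widest spread: its TALL-1 DMSO libraries were at 0.0999, 0.584 and 0.348 TPM, against 234, 182 and 303 TPM in CCRF-CEM and 152, 200.2 and 219.7 TPM in KOPT-K1. That is a difference of −7.47 ± 0.22 from CCRF-CEM and −7.16 ± 0.22 from KOPT-K1, while PHGDH, the step before it, was at 142, 168 and 191 TPM in TALL-1.

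ATF5 ran in the order TALL-1, CCRF-CEM, KOPT-K1, with means of 1022 ± 84.7 (SD, n = 3), 344 ± 8.31 and 32.0 ± 1.48 TPM, and each step was called. GPT2, which makes alanine from pyruvate and glutamate, had means of 10.9 TPM in KOPT-K1, 0.577 in CCRF-CEM and 0.032 in TALL-1. CBS, the enzyme before CTH in the route from homocysteine to cysteine, had 13.0 TPM in KOPT-K1 and 1.96 in CCRF-CEM and was listed at 0 in all TALL-1 DMSO libraries. CTH ran the other way, at 5.58 TPM in TALL-1, 0.389 in CCRF-CEM and 0.215 in KOPT-K1. SLC7A11, which imports cystine, was at 16.6, 25.3 and 18.0 TPM in TALL-1, above CCRF-CEM by 1.71 and above KOPT-K1 by 1.86.

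Other genes of the pathway were counted from lists drawn up by function, also with earlier results of these data known. Of 20 cytosolic aminoacyl-tRNA synthetase genes, many of which ATF4 activates, 16 fell and 3 rose after 8 d of BRM014 in Jurkat, led by GARS1 (−0.88), TARS1 (−0.72) and SARS1 (−0.67), with a median of −0.37, where 23% of all genes fell and 36.9% rose. At 6 h 3 fell and 3 rose (all genes 20.7% and 26.8%), no more than the background. In gSMARCA4_A2 10 fell and 1 rose (all genes 21.1% and 40.9%), and in gARID1A_1B 6 fell (all genes 23.1%), which is near the background. In 8 d DMSO against 6 h DMSO 12 were higher and 4 lower (all genes 16.6% and 18.7%).

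Of 11 further ATF4 targets tested in Jurkat, 5 fell and 3 rose after 8 d of BRM014, with STC2 (−1.36), TRIB3 (−1.24) and SLC6A9 (−1.03) changing most, where 23% of all genes fell and 36.9% rose. TRIB3 encodes a pseudokinase that restrains ATF4. In gSMARCA4_A2 4 rose and 2 fell, led by KLHL24 (1.64), DDIT4 (1.19) and TNFRSF10B (0.62), counts near or below the shares of all genes (40.9% higher and 21.1% lower). In 8 d against 6 h DMSO 10 were higher (all genes 16.6%). In the other lines, of 10 tested, 4 fell in CCRF-CEM, 5 in KOPT-K1 and 5 in TALL-1, and in the last 2 lines 1 and 2 rose (all genes lower 20.9%, 15.2% and 19.3%).

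Of 16 endoplasmic reticulum chaperone genes driven by ATF6 and XBP1, the other branches of the unfolded protein response, 7 fell and 1 rose in Jurkat after 6 h, led by XBP1 (−1.02) and the chaperone gene HSPA5 (−0.68), where 20.7% of all genes fell and 26.8% rose. In CCRF-CEM 8 fell and 1 rose, in KOPT-K1 11 fell and 1 rose and in TALL-1 5 fell (all genes lower 20.9%, 15.2% and 19.3%). HSPA5 was at −1.39 in CCRF-CEM and −1.84 in KOPT-K1. After 8 d in Jurkat 3 fell and 4 rose, below the shares of all genes (23% and 36.9%). KOPT-K1, which had the fewest lower members of these 3 lines, had the most lower chaperone genes.

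Of 13 genes for eIF2α kinases and their regulators, 5 fell and 1 rose after 8 d of BRM014 and also in gSMARCA4_A2. Among all genes 23% and 21.1% fell and 36.9% and 40.9% rose. At 6 h, in gARID1A and in gSMARCA4 3 fell and 2 rose, and in gARID1A_1B 3 fell and 1 rose. The shares of all genes lower and higher were 20.7% and 26.8% at 6 h and 13.2% and 7.72% in gARID1A. They were 15.8% and 25.1% in gSMARCA4 and 23.1% and 17% in gARID1A_1B. The lower counts at 6 h and in gARID1A_1B are thus near the background. Of this list, EIF2AK2, the kinase PKR that senses double-stranded RNA, fell in each of the 6 Jurkat comparisons, from −0.25 in gSMARCA4 to −0.60 in gSMARCA4_A2. It also fell in CCRF-CEM (−0.28) and TALL-1 (−0.54), and was at −0.08, not called, in KOPT-K1. Of 13 tested targets of the oxidative stress factor NRF2, which also drives SLC7A11, 10 fell and 2 rose after 8 d of BRM014 (all genes 23% and 36.9%), and HMOX1, haem oxygenase, rose by 2.06 ± 0.13. In gSMARCA4_A2 7 fell and 2 rose (all genes 21.1% and 40.9%), with HMOX1 at 2.21.

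Of 14 other amino acid transporters tested in Jurkat, 5 rose and 6 fell after 8 d, where 36.9% of all genes rose and 23% fell, so that the higher share is at the background. Among the higher ones were SLC1A3, a glutamate and aspartate carrier, at 1.95 and SLC7A8, another partner of SLC3A2, at 1.82. The same 2 genes had 2.18 and 1.64 in gARID1A_1B, and 1.45 and 2.12 in gSMARCA4_A2, all called. The taurine carrier SLC6A6 was the member of this list with the largest fall at 6 h, at −1.39 in Jurkat, −1.54 in CCRF-CEM and −1.20 in TALL-1.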

How the data were processed

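Poly(A) RNA was sequenced in 45 libraries. Per the labels' protocols, Jurkat RNA was extracted on a Maxwell instrument and made into non-directional NEBNext Ultra II libraries, and RNA of the 3 other lines was extracted with RNeasy columns and made into directional libraries. HISAT2 2.2.1, featureCounts 2.0.3, DESeq2 1.38.2 and the hg38 build are named in the submitters' processing notes, and the strand setting of counting is not given in the sources used here. The authors deposited TPM values in 2 tables, 1 for Jurkat and 1 for the other lines, each summing to 1000000 per library, and the deposited tables also give a gene length in bases. TPM times gene length, divided by the step of the library, was whole within 0.01 for 100% of values above 0, and gave the reads of each library. No 2 replicates were identical or as close as counting noise, the lowest chi-square divided by its degrees of freedom being 2.59.

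A gene was tested where 3 or more libraries of its table had 1 TPM or more, which left 17936 Jurkat genes and 16241 genes of the other lines. Differences of log2(TPM + 1), which understate changes of low genes, were fitted with limma 3.58.1 in R 4.3.3, using its intensity trend and robust options and 1 fit per table (18 and 12 residual degrees of freedom), and Benjamini-Hochberg adjustment over all genes of each of 20 comparisons. The threshold was 0.05. The self-written steps were tested on simulated data. Tables and figures used Python 3.11.15, pandas 2.3.3, numpy 2.4.6 and matplotlib 3.10.9. The p-values measure the spread between libraries that the labels call biological replicates.

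The 35 genes, the pathway lists and the tests were chosen with earlier results of these data known, and the comparison of guide and inhibitor effects after these values were seen. Every one of the 35 could be named. Library values are given for those with the largest changes among the called, and up to 3 called genes with the largest change are named per list and comparison, except for 1 gene that is not reported here.

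Replicate numbers were checked for pairing by correlating each library's departure from its group mean. In CCRF-CEM all 3 exceeded 0.1 (0.119, 0.286 and 0.447), and the numbers were taken to pair its libraries, which the labels do not state. Replicate 3 stood apart in both CCRF-CEM groups. Its chi-square divided by the degrees of freedom was 21.89 to 38.9 against the other replicates, beside 5.23 and 5.029 between replicates 1 and 2. Alternatives were a pseudocount of 0.1, no filter, median-ratio rescaling, mitochondrial genes left out, fits of the compared groups alone, a block for the replicate number, limma-voom on the recovered reads, and each library left out in turn. Replicate 3 was also left out of both CCRF-CEM groups at once.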

Additional observations from a re-analysis of the deposited data

Results flagged for a closer look

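These 5 genes stood out because their effect under 1 contrast was called in one direction in one setting and in the opposite direction in another, with a called difference between the effects (limma, Benjamini-Hochberg adjustment). ATF3 rose with guides to SMARCA4 and SMARCA2 and fell with 8 d of BRM014, and the effects differed by 2.20. SESN2 rose with the guides and was called lower at 8 d, with a difference of 1.50, but its 8 d call was not stable: it was lost with a pseudocount of 0.1, no filter or only the compared groups (−0.55, −0.50 and −0.50), and without any 1 library except DMSO replicate 3 (−0.54 to −0.24). SHMT2 and CTH rose at 6 h and fell at 8 d of BRM014 in Jurkat, with differences of −1.02 and −1.21. ATF5 fell in CCRF-CEM and in TALL-1 and rose in KOPT-K1, with differences of −1.77 and −1.40. More differences between effects were called in which 1 of the effects was not called or both had the same sign. The fall of ATF3 at 8 d was not called without 8 d DMSO replicate 1 (−0.42) or with only the compared groups. Neither ATF3 nor SESN2 was called after 6 h of BRM014 in Jurkat, and both were higher in 8 d DMSO than in 6 h DMSO. The rise of SHMT2 at 6 h was not called under 4 alternatives (0.16 to 0.20) or without 1 of 3 single libraries (0.14 to 0.21). Groups of 3 are too small for a test of outlying libraries.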

How the results depend on the processing

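Of 4760 single-gene values under alternative settings, 4428 kept their direction and side of the threshold, 90 lost and 241 gained a call, and 1 turned: the difference in GPT2 between the effects in TALL-1 and KOPT-K1, 0.54, was −0.062 with limma-voom. Of 5270 values with libraries left out, 4947 kept both, 197 lost and 126 gained a call. These values had 1 library left out, except those of the fit without replicate 3 in both CCRF-CEM groups, which are counted with them. That fit gave 152 that kept both, 2 that lost and 16 that gained a call. The cause of these changes was not tested.

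Counts of higher members: at 6 h in Jurkat 5, 3 with median-ratio rescaling and 8 with the replicate block. The higher calls among all genes were 4801, 4155 and 5132 in that order. In gARID1A 3, then 6 with rescaling, 7 with the block and 8 with limma-voom. Among all genes there were 1385 higher, then 1993, 1759 and 2120 in that order. With only the compared groups, gARID1A_1B went from 3 to 5, the 8 d minus 6 h effect from 2 to 1, gSMARCA4_A2 against gSMARCA4 from 3 to 6, 8 d against 6 h DMSO from 24 to 12, guides minus inhibitor from 10 to 5 (21 with the block), and KOPT-K1 from 3 to 5 (6 with the block). Among all genes the higher calls went from 3046 to 3101 in gARID1A_1B and from 4606 to 3889 for 8 d minus 6 h. They went from 4751 to 4973 in gSMARCA4_A2 against gSMARCA4 and from 2985 to 859 in the DMSO groups. Guides minus inhibitor had 1739, then 942 (2292 with the block), and KOPT-K1 had 3721, then 3927 (4758 with the block). TALL-1 went from 1 to 2 with a pseudocount of 0.1, only the compared groups or the block. Its higher calls among all genes were 4324, then 4194, 4370 and 5254 in that order. With the block, gARID1A_1B against gARID1A and CCRF-CEM minus KOPT-K1 went from 0 to 1, TALL-1 minus CCRF-CEM from 2 to 5 and TALL-1 minus KOPT-K1 from 2 to 4 (1 with a pseudocount of 0.1, no filter or mitochondrial genes left out). Higher calls among all genes went with the block from 1854 to 2275, 1400 to 2517, 1600 to 2458 and 1647 to 2578 in that order. The last was 1437 with a pseudocount of 0.1 and 1606 with mitochondrial genes left out.

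Counts of lower members: in gARID1A 1, 0 with no filter, rescaling or limma-voom and 2 with the block. Lower calls among all genes there were 2363, then 1956 with rescaling, 2219 with limma-voom and 2799 with the block. In gSMARCA4_A2 14, then 22 with rescaling, where the lower calls among all genes went from 3793 to 6065. In 8 d against 6 h DMSO 2, then 1 with rescaling, mitochondrial genes left out or limma-voom and 0 with only the compared groups. Lower calls among all genes went from 3353 to 3178, 2624, 3068 and 1197 in that order. With the block, gARID1A_1B against gARID1A went from 8 to 13, KOPT-K1 from 6 to 10, CCRF-CEM from 14 to 21, CCRF-CEM minus KOPT-K1 from 3 to 16 (8 without replicate 3 in both CCRF-CEM groups), TALL-1 minus CCRF-CEM from 2 to 11 and TALL-1 minus KOPT-K1 from 9 to 20. The lower calls among all genes rose too, for example from 1578 to 2522 in CCRF-CEM minus KOPT-K1 and from 1825 to 2858 in TALL-1 minus KOPT-K1. Pairing was below 0.1 for at least 1 number in the other lines and the guide groups (lowest −0.084, Jurkat 8 d), and each number correlated best with itself in Jurkat at 6 h, gARID1A_1B, KOPT-K1 and TALL-1.

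With 1 library left out, higher and lower counts ranged over 3 to 5 and 6 to 8 at 6 h, 3 to 4 and 21 to 29 at 8 d, 2 to 3 and 0 to 4 in gARID1A, 3 and 7 to 12 in gARID1A_1B, 5 to 6 and 4 to 7 in gSMARCA4, and 5 and 12 to 16 in gSMARCA4_A2. They were 2 to 4 and 17 to 25 for 8 d minus 6 h, 0 to 1 and 4 to 10 for gARID1A_1B against gARID1A, 2 to 3 and 10 to 11 for gSMARCA4_A2 against gSMARCA4, 19 to 27 and 1 to 3 for the DMSO groups, and 6 to 25 and 1 for guides minus inhibitor. In the other lines they were 1 and 11 to 20 in CCRF-CEM, 3 and 4 to 6 in KOPT-K1, 1 and 15 to 19 in TALL-1, 0 to 1 and 3 to 10 for CCRF-CEM minus KOPT-K1, 1 to 4 and 2 to 3 for TALL-1 minus CCRF-CEM, and 1 to 4 and 7 to 11 for TALL-1 minus KOPT-K1. Untreated lines gave 8 to 10 and 6 to 10, 10 to 15 and 11 to 13, and 15 to 16 and 12 to 15 for CCRF-CEM against KOPT-K1, TALL-1 against CCRF-CEM and TALL-1 against KOPT-K1. A group left with 2 libraries was taken to vary like the others. The ranges of comparisons with CCRF-CEM include the fit without replicate 3 in both its groups.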
